A study of Mus musculus with 2 samples.

Results

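Hepatocyte barcodes with baseline Nras were compared between those with at least 20000 gene UMIs, here called deep, and those with 1000 to 5000, here called shallow. A UMI is a unique molecule counted for a gene in a droplet barcode. Members were chosen by their depth and by measured marker, mitochondrial, mVenus and Nras UMIs. The rule kept 4489 of the 13151 barcodes of the gene expression library, 904 deep and 3585 shallow, and another 1039 that met it lay between the depth limits. A barcode had at least 500 genes, under 20% mitochondrial UMIs, at least 1% of its gene UMIs in Alb, Apoa1, Apoa2, Ttr and Fgb, and under 0.5% in the class II genes H2-Aa, H2-Ab1, H2-Eb1 and Cd74. It held at most 1 UMI of the endothelial genes Clec4g, Ptprb and Kdr, no mVenus UMI, and under 150 CPM of Nras, where CPM is the UMIs of a gene per 1000000 gene UMIs of the barcode or of the summed barcodes. All values of these rule genes are a description and were not tested.

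Livers of 3 BL6 mice were studied on day 6 after hydrodynamic tail-vein injection, in which a large volume drives plasmid DNA into some hepatocytes. All 3 mice received a transposon with mVenus and NRAS, driven by the CAGGS promoter in the study's methods. It encoded oncogenic NRAS(G12V) in 2 mice and NRAS(G12V/D38A), changed in the effector loop, in 1 mouse. Cells of each mouse took up a hashtag, a DNA-tagged antibody, were sorted for viability and mVenus, and were pooled on the 10x Genomics 3′ platform. Barcodes without an mVenus UMI therefore still came through an mVenus gate. Per the published methods the mice were female and 6 to 8 weeks old at injection. Construct reads can fall on the Nras row, which is why Nras was held at its baseline.

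Hepatocytes make most plasma proteins on ribosomes bound to the endoplasmic reticulum, whereas many enzymes of amino acid and fat metabolism are made on free ribosomes in the cytosol. Some long non-coding RNAs, such as Malat1 and Neat1, stay in the nucleus, and the mt- genes are transcribed inside mitochondria. Immediate early genes such as Fos and Jun are switched on within minutes of stress, including tissue dissociation. The liver is zoned, with urea synthesis and gluconeogenesis strongest near the portal vein and glutamine synthesis near the central vein.

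The tags that told the mice apart are shown because the test below rests on them, with the whole tag in capitals since it was matched without mismatch.
Hashtag 1: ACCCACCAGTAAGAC
Hashtag 2: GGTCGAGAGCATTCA
Hashtag 3: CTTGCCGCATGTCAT
The deposited table gives hashtag 1 to the D38A mouse and hashtags 2 and 3 to the G12V mice, whereas in the published methods hashtag 3 is the D38A mouse and the other two are G12V mice. Deep and shallow barcodes were compared within a mouse, which does not depend on this pairing. The mice filled the classes unequally, by counts that moved with the rule used to call the hashtags. Hashtag 1 had 52 deep and 106 shallow barcodes, hashtag 2 had 521 and 95, and hashtag 3 had 2 and 118. No hashtag call was made for 309 deep barcodes (34.2%) and 3257 shallow ones (90.9%) while 20 and 7 carried more than 1 tag. These doublets and uncalled barcodes stayed in the pools but not in the test. The test over mice thus covered 575 deep barcodes but only 319 shallow ones, 8.90% of that class, and every deep value of hashtag 3 came from 2 barcodes with 89256 UMIs.

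Deep barcodes had a median of 40484 UMIs and 5011.5 genes, and shallow barcodes 2136 UMIs and 945 genes. The summed depth was 38174238 UMIs for deep and 8597043 for shallow. Each class was 1 pool, so a pooled value carries only an exact Poisson 95% interval for counting error.

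The classes differed most plainly in mitochondrial transcripts. Their median share of UMIs was 8.84% in deep barcodes and 0.314% in shallow ones. A share under 1% was found in 3073 shallow barcodes (85.7%) but in only 8 deep ones (0.885%), and a share of 5 to 20% in 192 (5.36%) and 872 (96.5%). Each of the 13 mt- genes was higher in the deep pool, from 3.27-fold for mt-Nd6 to 13.4-fold for mt-Nd1. These shares lie inside a limit of the rule and are given without a test.

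**Figure D1:**
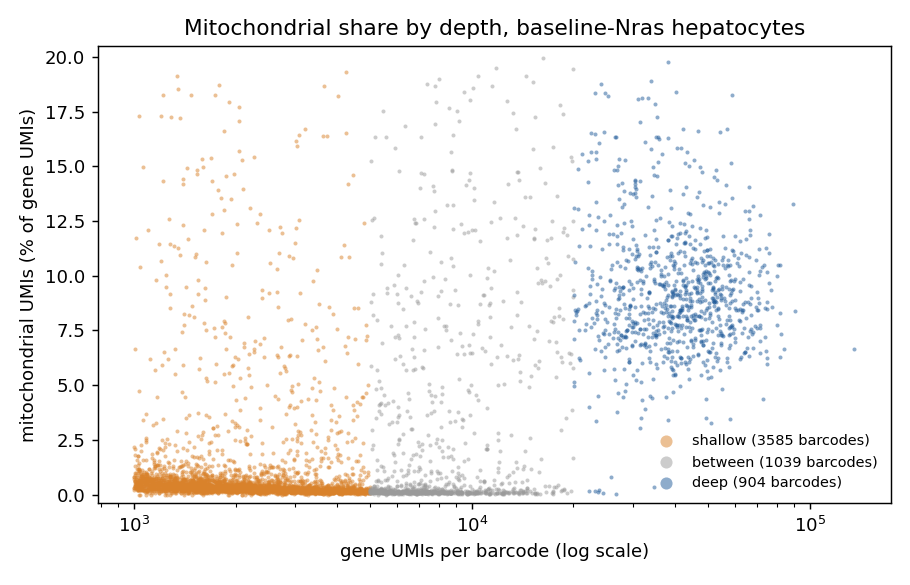
Mitochondrial share (% of gene UMIs, y axis) against gene UMIs per barcode (x axis, log scale) for baseline-Nras hepatocyte barcodes (904 deep, 1039 between, 3585 shallow), 1 point each, coloured by depth class. Shallow barcodes lay mostly under 1% and deep ones mostly at 5 to 20%, and barcodes between the depth limits held both kinds.

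Hepatocyte markers were high in both pools. The 15 hepatocyte markers outside the rule summed to 62802 CPM in deep and 53967 in shallow barcodes, and to 20991 in 626 endothelial barcodes, taken as those with at least 10 UMIs of the 3 endothelial genes. Fabp1 alone gave 2609 CPM of the deep, 27068 of the shallow and 5263 of the endothelial sum, so the near-equal sums of the classes rest on this gene. The 5 rule genes held 9.94% of deep and 3.08% of shallow UMIs. Alb, serum albumin, had 37065 and 11144 CPM, Ttr 26298 and 8412, and Apoa2 6990.1 and 4400 CPM. The deep sum of hashtag 3 went against this, with 31146 CPM of the 15 markers against 46366 in its shallow sum. Fabp1, given by mouse below, was most of that shallow sum and little of that deep one. Alb and Apoa2 of the deep sum of hashtag 3, at 3361 and 795 CPM, were below the 8698 and 1935 CPM of the endothelial barcodes. Its Ttr and Apoa1, at 11148 and 8246, were above their 5056 and 5342. Markers of other cells were low in the pools but not in each mouse. The 11 endothelial markers summed to 13.2 CPM in deep and 60.4 in shallow barcodes, reaching 540 in the shallow sum of hashtag 3. The 11 macrophage markers had 5.50 and 56.2 CPM, the 10 lymphocyte markers 2.83 and 23.7 (89.6 in the deep sum of hashtag 3), the 7 dendritic markers 1.52 and 6.63, and the 4 red cell markers 0.471 and 0.814. In the shallow sums of hashtags 1, 2 and 3, macrophage markers had 562, 325 and 576 CPM, and lymphocyte markers 193, 233 and 170. The deep sums had 2.13, 2.78 and 0 CPM of the macrophage markers. The 4 neutrophil markers had 2.59 and 149.7 CPM, and 316 to 2159 CPM in the shallow sums of the 3 mice. The part of these cells in the results below was not tested.

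The levels just inside and just outside the limits of the rule were as follows. Barcodes just inside the deep limit (20000 to 25000 UMIs, 86 barcodes) had 14325 CPM of Malat1 and 3343 of Fabp1, and those just outside (15000 to 20000, 88 barcodes) had 10051 and 6448. Barcodes just inside the upper shallow limit (4000 to 5000, 417 barcodes) had 339.7 and 26660 CPM, and those just outside it (5000 to 6000, 236 barcodes) 516 and 23554. At the lower limit, the 451 barcodes just inside had 896 CPM of Malat1 and the 219 under 1000 UMIs had 1982. The hepatocyte limit marked a larger step, since the 117 shallow barcodes just above 1% of the 5 genes had 4186 CPM of Malat1 and 26559 of Fabp1, and 37 with 0.75 to 1% had 13225 and 9391. Deep barcodes at 100 to 150 CPM of Nras (97 barcodes) had 13604 CPM of Malat1, and those without mVenus at 150 to 200 (55 barcodes) had 12958. A single Nras UMI passes the limit in a shallow barcode, so every shallow barcode had 0, whereas deep ones had 44.8 CPM and 205 of them (22.7%) had 0.

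To ask which genes differed, UMIs were summed by mouse and depth class and fitted with edgeR's quasi-likelihood test, with the mouse as a block and Benjamini-Hochberg adjustment over 3172 genes. The test called 647 genes higher in deep barcodes (20.4% of those tested) and 1280 lower (40.4%), 60.8% in all. Of these 1927 genes, 1824 had the same direction in all 3 mice and 1920 that of the pool. In the deep sum of hashtag 3, where 3 counts correspond to 33.6 CPM, 117 of the 1927 had 0 UMIs. The 3 deep sums lay above the 3 shallow sums for 680 genes (21.4%) and below them for 1295 (40.8%). With so many calls, a list has to be read against these shares. The median gene tested was at −0.42 on the log2 scale, so the scaling placed most genes lower in deep barcodes. TMM scaling moved this median to −0.13 and the calls to 810 higher and 889 lower, DESeq2 called 699 and 511, a fixed hashtag rule gave 576 and 595, and no filter on low counts 1164 and 1720.

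The 12 genes furthest apart in each direction in the pools, by the log2 ratio of CPM + 1, are described with the groups they belong to. Of these, 11 of the 12 higher and 12 of the 12 lower had 3 sums of each class that did not overlap. Nothing is read from this count, since the naming rule used the same contrast.

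Among transcripts retained in the nucleus, Neat1, Xist, Malat1 and Meg3 were higher in deep barcodes. Malat1 (chromosome 19, 5795690 to 5802672, GRCm38) had 10973 CPM (interval 10940.1 to 11007) in deep and 663 (645.6 to 680.1) in shallow barcodes, 16.6-fold. By mouse it had 13357, 9568 and 19002 CPM in the deep sums of hashtags 1, 2 and 3, and 4346, 4220.5 and 3440.2 in the shallow ones. All deep sums were above all shallow sums, with a log2 change of 1.75 (SE 0.304, edgeR adjusted p 0.000691). Without hashtag 1 this call was lost, at 1.82 and an edgeR adjusted p of 0.0738, and under the fixed hashtag rule the change was 0.39 (0.612).

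The change of Malat1 was smaller within mice than in the pool, and its shallow level moved with the hashtag call. Shallow barcodes called for a hashtag had 4026 CPM and those without a call 315, whereas deep ones had 9951 and 13328.

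Neat1, the RNA that builds paraspeckles, lies nearby (chromosome 19, 5824708 to 5845478). It had 1537, 1072 and 2308 CPM in the deep sums and 84.3, 73.0 and 56.8 in the shallow ones, so its groups stood far apart. Its change was 4.43 (SE 0.315, edgeR adjusted p 5.14e-06), and 33.7-fold in the pool. Xist, which coats the inactive X chromosome, had 674 CPM in the deep and 29.2 in the shallow pool, with 654 to 885 and 117 to 161 CPM by mouse. Its log2 change was 2.51 within mice and 4.48 in the pool. Shallow barcodes called for a hashtag had 135 CPM of Xist and those without a call 18.3, and 81 of its 251 shallow UMIs lay in 10 barcodes. Meg3, a maternally expressed imprinted RNA, had 204, 164 and 11.2 CPM in the deep and 10.5, 102 and 4.06 in the shallow sums. The groups of Meg3 overlapped, and its change of 1.74 (edgeR adjusted p 0.0109) was lost without hashtag 1, at 0.73 and an adjusted p of 0.259. In shallow barcodes 39 of its 75 UMIs lay in 10 barcodes.

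Of the 6 nuclear long RNAs tested in a list of 14, 4 were called higher and 2 lower, and without hashtag 1 higher calls numbered 2. The lower ones were Gm42418, with 688 CPM in deep and 2648 in shallow barcodes, and AY036118, with 26.5 and 372. These models overlap on chromosome 17, so their reads are uncertain. Over all 26 long non-coding genes tested, 7 were higher and 12 lower with a median of −0.39.

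Most immediate early genes were higher in deep barcodes. Of the 22 immediate early and heat shock genes tested (25 listed), 13 were called higher and 2 lower, with a median log2 change of 1.47. Fos had 509, 697 and 1322 CPM in the deep sums of hashtags 1, 2 and 3, and 63.2, 43.8 and 77.1 in the shallow ones. Every deep sum was several times every shallow one, with a change of 3.70 (SE 0.261, edgeR adjusted p 5.14e-06). Its partner Jun had 647, 705 and 583 CPM against 84.3, 106 and 73.0, a change of 2.88 (SE 0.206, edgeR adjusted p 5.14e-06).

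Fosb had 157 CPM in the deep and 9.54 in the shallow pool, Egr1 253 and 24.8, and Atf3 303 and 22.6, and all 3 were called higher. Heat shock genes varied more. Hspa1b was called higher at 174 and 19.8 CPM, whereas its neighbour Hspa1a, at 82.3 and 19.3 CPM, had a change of 0.22 that did not pass. Both genes are near-identical copies, so their counts are uncertain. The lower calls were Nr4a1, at 2.13, 1.44 and 22.4 CPM in the deep and 73.7, 40.1 and 77.1 in the shallow sums, and Klf2, at 27.3 and 15.7 CPM in the pools. Klf2 was thus lower within mice and higher in the pool.

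Among the genes furthest apart were secreted signals and growth regulators. Gdf15, a stress-induced hormone, had 822, 1187 and 2274 CPM in the deep sums against 102, 80.2 and 44.6 in the shallow ones (log2 change 4.07, SE 0.406, edgeR adjusted p 2.94e-05). Fst, the activin-binding protein follistatin, had 97.9, 97.7 and 56.0 CPM against 3.51, 3.65 and 4.06. Cyr61, a matrix protein and YAP target, had 123, 113 and 101 CPM against 14.0, 29.2 and 4.06. The zinc transporter Slc39a14 had 56.6, 53.8 and 123 CPM against 0, 7.30 and 0, where 3 counts in the shallow sums of hashtags 1 and 3 correspond to 10.5 and 12.2 CPM. Deep sums lay above shallow ones in all of these.

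**Figure D2:**
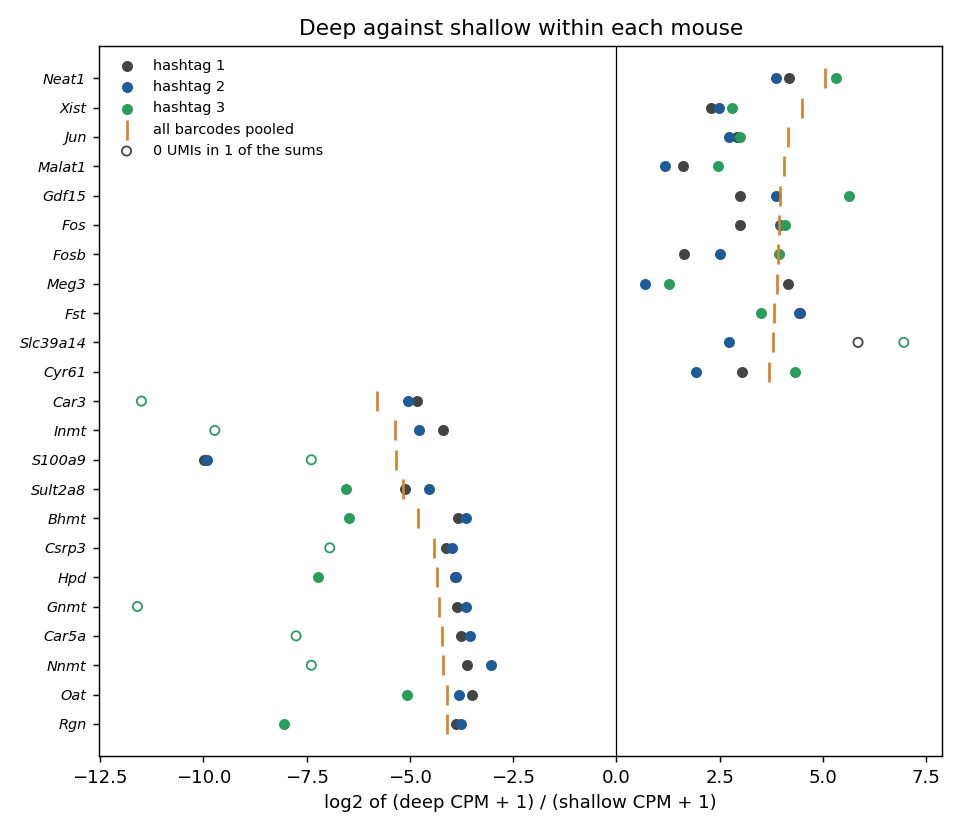
Log2 ratio of deep over shallow (CPM + 1, x axis) for 11 higher and 12 lower genes of the naming rule (y axis), with points for the 3 mice and a bar for all barcodes pooled. Open circles mark a sum with 0 UMIs. All points lie on the side of their direction, and those of hashtag 3 rest on 2 deep barcodes.

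Messages for secreted and membrane proteins were mostly higher in deep barcodes. Of the 25 plasma protein genes tested (29 listed), 18 were higher and 1 lower with a median of 1.61. Apob, the structural protein of very low density lipoprotein and one of the longest liver messages, had 1598, 1609.7 and 1165 CPM in the deep sums against 119, 142 and 60.9 in the shallow ones. Its change was 3.79 (SE 0.257, edgeR adjusted p 4.3e-06). Trf, the iron carrier transferrin, had 11940.0, 13295 and 4526 CPM against 3170.3, 3728 and 2174 (1.61, SE 0.274, edgeR adjusted p 0.000622).

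Apoe had 28052 CPM in the deep and 6841 in the shallow pool, Rbp4, the retinol carrier, 10455 and 3097, and Vtn, vitronectin, 1117 and 198. Not all secreted messages followed. Apoc1 was called lower at 3594 and 4646 CPM, and the antitrypsin genes Serpina1a and Serpina1b, near-identical copies whose counts are uncertain, had changes of 0.49 and 0.53 that did not pass. Higher calls in this list numbered 11 without hashtag 1.

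Of 16 acute phase genes tested (24 listed), 10 were higher and 1 lower, with a median of 1.02. Hp, the haemoglobin scavenger haptoglobin, had 7978 CPM in the deep and 1603 in the shallow pool, Cp, ceruloplasmin, 1225 and 144, and complement C3 2740.4 and 379. Orm1 was the lower gene, at 182 and 564 CPM. Higher calls numbered 7 with DESeq2 and 6 without hashtag 1 or hashtag 2.

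The machinery of the secretory path went the same way. Of 15 endoplasmic reticulum and integrated stress genes tested (22 listed), 13 were higher and 0 lower, with a median of 1.98. Hsp90b1, a chaperone of the reticulum, had 887, 939 and 683 CPM against 119, 117 and 134 (2.77, SE 0.228, edgeR adjusted p 9.76e-06). Hspa5, the chaperone BiP, had 445, 891 and 426 CPM against 102, 131 and 93.3 (2.40, SE 0.219, edgeR adjusted p 1.79e-05). Atf4 and Ddit3, factors of the integrated stress response, had changes of −0.53 and 0.15 that did not pass.

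Of 20 traffic genes tested (22 listed), 13 were higher and 3 lower, with a median of 1.08. Sec61a1, the channel of the translocon, had 60.5 and 9.19 CPM, a change of 2.63. Its small subunits Sec61b and Sec61g were called lower, at 423 and 734 CPM and at 293 and 591. Of 18 lysosome and autophagy genes tested (21 listed), 13 were higher and 2 lower with a median of 1.82. The 13 were lysosomal enzymes and membrane proteins, such as Ctsl, at 779 and 179 CPM, and Cd63, at 675 and 155, whereas the 2 lower ones, Gabarapl1 and Map1lc3a, belong to the autophagosome.

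Among transporters, 6 of 17 listed were tested and 4 were higher, with none lower. Abcc2, the canalicular exporter of conjugated bilirubin, had 198 CPM in the deep and 21.6 in the shallow pool, and Abcc3 67.7 and 7.79. The uptake carriers Slc10a1 and Slco1b2 had changes of 0.12 and −0.29 that did not pass. Of 12 lipid synthesis genes tested (22 listed), 5 were higher and 1 lower, with a median of 0.50. Dgat2, which completes triglyceride synthesis, was called higher at 120 and 34.2 CPM, and Scd1, the stearoyl-CoA desaturase, had 42.0 and 35.2 CPM and did not pass. Without hashtag 3 the higher calls numbered 8 for transporters and 13 for lipid synthesis, and without hashtag 1 or 2 those of lipid synthesis numbered 3.

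In the other direction, messages for enzymes of the urea cycle, amino acid breakdown and fatty acid oxidation were mostly lower in deep barcodes. All 25 urea cycle and amino acid genes listed were tested, and 22 were lower in deep barcodes and none higher, with a median of −1.66. Gnmt (chromosome 17, 46725664 to 46729168), the glycine methyltransferase that consumes S-adenosylmethionine, had 126, 137 and 0 CPM in the deep sums against 1829, 1718 and 3095 in the shallow ones. The 0 of hashtag 3 allows up to 33.6 CPM, the level of 3 counts. Its change was −4.24 (SE 0.50, edgeR adjusted p 6.57e-05), and 19.9-fold in the pool.

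Hpd, which degrades tyrosine, had 100.4, 85.8 and 11.2 CPM against 1517, 1280 and 1834 (−4.20, SE 0.356, edgeR adjusted p 1.07e-05). Bhmt, which remethylates homocysteine, had 34.5, 29.5 and 11.2 CPM against 509, 379 and 1087. In the urea cycle, Ass1 had 298 CPM in the deep and 2411 in the shallow pool, Otc 143 and 1110, and Arg1 176 and 1090, all called lower. Cps1, the mitochondrial entry enzyme of the cycle with a long message, had 169 and 98.5 CPM, a change of 0.49 that did not pass. The groups of the called enzymes named here did not overlap.

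Fabp1, the cytosolic fatty acid carrier of the liver, was among the most abundant messages of shallow barcodes. It had 2609 CPM in the deep and 27068 in the shallow pool, 10.4-fold, with 2467, 2829 and 67.2 CPM in the deep sums and 26570.2, 27825 and 25579 in the shallow ones. Its change was −4.45 (SE 0.779, edgeR adjusted p 0.00073). The shallow sums differed little among mice, whereas the deep value of hashtag 3 was far below the other deep values.

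Car3, the carbonic anhydrase abundant in hepatocytes, was first among the lower genes by the naming rule (chromosome 3, 14863512 to 14872523). It had 42.6, 34.6 and 0 CPM in the deep sums against 1236, 1182 and 2897, a change of −5.27 (SE 0.411, edgeR adjusted p 6.76e-06) and 56.7-fold in the pool. Inmt, an N-methyltransferase, had 28.5, 14.0 and 0 CPM against 541, 409 and 844, and the sulfotransferase Sult2a8, which has close paralogs, 14.9, 21.4 and 11.2 against 555, 514 and 1136. Nnmt, nicotinamide N-methyltransferase, had 5.45 CPM in the deep and 117 in the shallow pool, and Car5a, a mitochondrial carbonic anhydrase that supplies the urea cycle, 8.23 and 171. Csrp3, a LIM protein known from muscle, had 4.19 and 109 CPM.

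S100a9 met the naming rule but stood apart from these enzymes. It encodes a neutrophil calcium-binding protein, and had 1.36 CPM in the deep and 94.7 in the shallow pool. Of its 814 shallow UMIs, 810 lay in 10 barcodes, and shallow barcodes without a hashtag call had 1.03 CPM against 1001 in those with one. The neutrophil markers S100a8 and Retnlg were also called lower, and of 388 shallow UMIs of S100a8, 380 lay in 10 barcodes.

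Nuclear-encoded mitochondrial genes went against the mt- genes. Of 72 nuclear oxidative phosphorylation rows tested (73 symbols listed), 62 were lower in deep barcodes and 0 higher, with a median of −1.02. Uqcrq, a subunit of complex III, had 685, 716 and 359 CPM against 2022, 2028 and 2061 (−1.80, SE 0.263, edgeR adjusted p 0.000241). The same list summed to 24763 CPM in the deep and 53679 in the shallow pool, while the mt- genes of the same complexes held 9.21% and 0.972% of UMIs. DESeq2 and the fit without hashtag 1 each called 40 of the list lower, and the fixed hashtag rule 46.

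Of 15 fatty acid oxidation genes tested (19 listed), 13 were lower and 0 higher, with a median of −1.12. Acaa2, a mitochondrial thiolase, had 362 and 1849 CPM, and Acaa1b, a peroxisomal one, 84.6 and 949. All 31 proteasome genes were tested, and 26 were lower and 0 higher with a median of −0.68, close to the −0.42 of all genes. Lower calls numbered 14 under TMM, 6 under DESeq2 and under the fixed hashtag rule, and 9 and 8 without hashtags 1 and 2. Psma1 was an example, at 139 and 326 CPM.

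Of 22 NRF2 and glutathione genes tested (30 listed), 12 were lower and 3 higher, with a median of −0.64. Gpx1, the cytosolic glutathione peroxidase, had 694, 698 and 504 CPM against 5052, 5165 and 6333 (−3.10, SE 0.275, edgeR adjusted p 1.45e-05). Gclc and Ugdh were higher, at 774 and 322 CPM and at 312 and 151. Lower calls numbered 7 or 8 under TMM, DESeq2 and without hashtag 1 or 2.

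Cytosolic ribosomal protein genes gave few calls. Of 80 tested (83 matched), 3 were lower and 0 higher, with a median of 0.03 and sums of 121757 CPM in deep and 135309 in shallow barcodes. The direction turned with the scaling and with the mice, since TMM called 10 higher and 2 lower, DESeq2 18 and 1, and the fit without hashtag 3 1 and 26. The elongation factor Eef1a1 had 5631 and 6249 CPM, a change of 0.13 that did not pass.

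**Figure D3:**
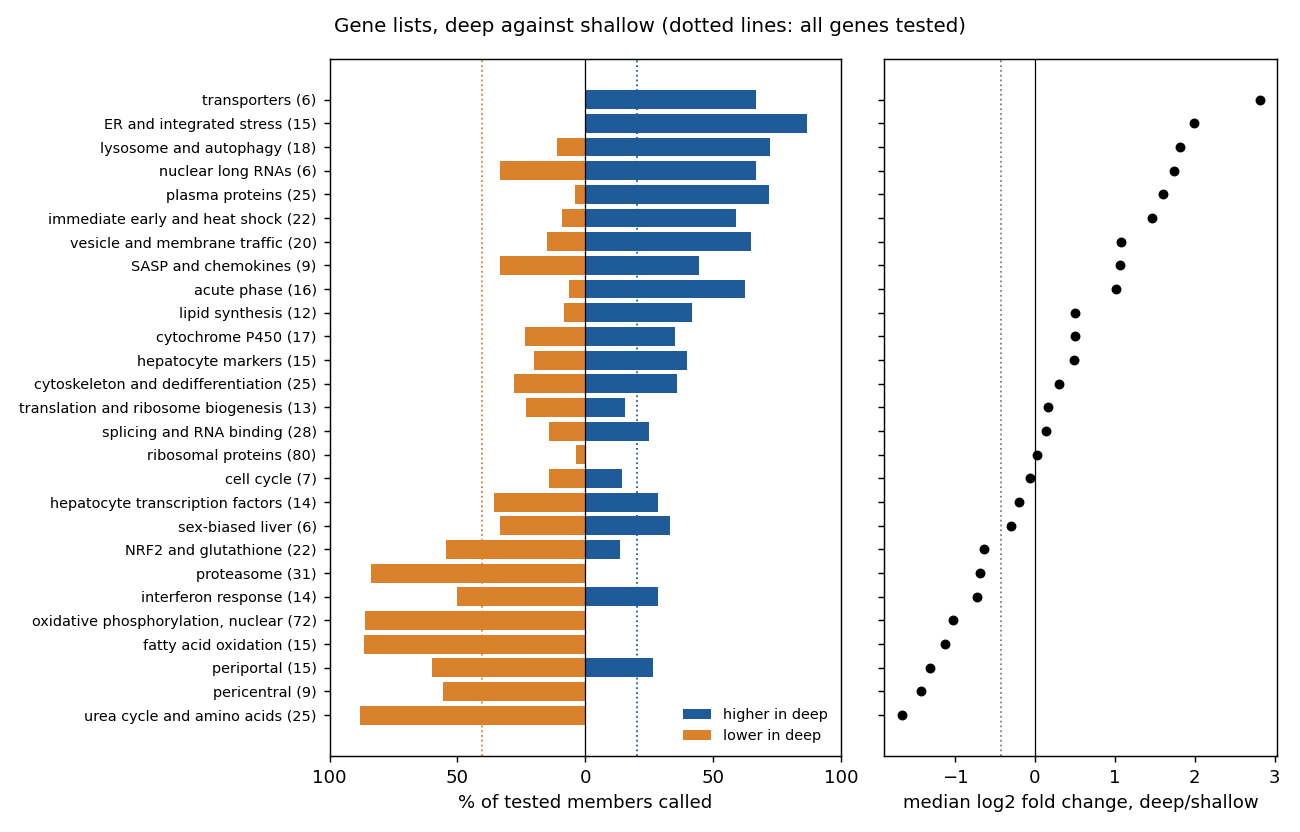
Share of tested members called higher (blue) or lower (orange) in deep barcodes (% of tested members, left) and median log2 fold change (right) for lists with at least 6 tested members, whose number stands in brackets. Dotted lines give all genes tested, 20.4% higher, 40.4% lower and a median of −0.42. Secretory, lysosomal and stress lists lie above, and those of urea cycle and amino acid enzymes, fatty acid oxidation and oxidative phosphorylation below.

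Zonation genes of both ends of the lobule were found among those lower in deep barcodes. Of 9 pericentral genes tested (18 listed), 5 were lower (55.6%) and none higher, with a median of −1.42. Of 15 periportal genes tested (17 listed), 9 were lower (60.0%) and 4 higher (26.7%), with a median of −1.31. Over all genes tested, 40.4% were lower and 20.4% higher. Pericentral lower calls numbered 4 under TMM and under DESeq2, and periportal ones 9 and 7. Pericentral Glul, glutamine synthetase, had 54.2 CPM in the deep and 397 in the shallow pool, Rgn 201 and 3454, and Oat 29.4 and 520. Periportal Pck1, of gluconeogenesis, had 19.7 and 151 CPM. The higher periportal genes were Hsd17b13, Cdh1, Ctsc and Sdsl, of which Cdh1 encodes the adhesion protein E-cadherin and had 85.4 and 8.26 CPM.

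Cytochrome P450 genes were split, with 6 higher and 4 lower of 17 tested (39 listed) and a median of 0.50. Cyp2d10 had 467 CPM in the deep and 116 in the shallow pool, whereas Cyp2e1 had 136 and 353 and Cyp2c50 5.63 and 82.0. P450 genes have near-identical copies, so single members are uncertain. Without hashtag 3 the counts were 10 higher and 7 lower. Hepatocyte transcription factors were split too, with 4 higher and 5 lower of 14 tested (24 listed). Mlxipl, which responds to carbohydrate, had 63.0 and 17.5 CPM, and Nr1i3, the receptor CAR, 4.32 and 68.4. Hnf4a, the central factor of hepatocyte identity, had 101 and 109 CPM, a change of −0.32 that did not pass. Without hashtags 1 and 2, lower calls numbered 3 and 2.

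The remaining lists were mixed. Of 25 cytoskeletal and dedifferentiation genes tested (33 listed), 9 were higher and 7 lower. Krt8 and Krt18, the keratins of hepatocytes, were higher at 724 and 405 and at 1067 and 616 CPM, and Tmsb4x, abundant in blood cells, was lower at 266 and 562. Lower calls numbered 3, 2 and 12 without hashtags 1, 2 and 3. Of 14 interferon genes tested (31 listed), 4 were higher and 7 lower, where H2-K1, a class I antigen-presenting chain, had 1001 and 271 CPM and Isg15 48.4 and 139. Lower calls numbered 1 and 4 without hashtags 1 and 2.

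Of 28 splicing and RNA-binding genes tested (31 listed), 7 were higher and 4 lower, and of 13 translation genes (18 listed), 2 and 3. Splicing counts were 11 and 3 under TMM, 8 and 0 with DESeq2, 2 and 2 under the fixed hashtag rule and 6 and 1 without hashtag 1, and translation counts 6 and 1, 5 and 1, 0 and 0, and 1 and 1. Srrm2, a large protein of nuclear speckles, had 175 and 43.5 CPM. Of 9 secretory-phenotype genes and chemokines tested (23 listed), 4 were higher and 3 lower. Igfbp1 had 942 and 144 CPM and Cxcl1 215 and 22.3, whereas Il1b, Ccl5 and Cxcl2 were lower within mice, alongside the neutrophil markers given above. Only 4 of 23 RAS output genes were tested, of which Hbegf, Dusp6 and Phlda1 were higher, and higher calls numbered 1, 1 and 7 without hashtags 1, 2 and 3. Of 34 cell cycle genes 7 were tested, and Cdkn1a, the inhibitor p21, was higher at 95.6 and 30.5 CPM while Cdkn2c was lower at 33.5 and 51.2. Of 6 sex-biased genes tested (30 listed), Xist among them, 2 were higher and 2 lower.

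Some markers of bile duct and stellate cells were present in deep barcodes. Sox9, of bile ducts and progenitors, had 83.2 CPM in the deep and 7.10 in the shallow pool and was called higher, and Spp1, osteopontin, had 2983 and 1293 and did not pass. The 5 bile duct markers summed to 3067 and 1303 CPM, nearly all of it Spp1, and Epcam, Krt19 and Krt7 had 0.498, 0 and 0.367 CPM in the deep pool. Ecm1, a stellate marker, was called higher at 76.4 and 40.2 CPM, and the 6 stellate markers summed to 114 and 49.8.

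To ask whether the pattern moved with depth or with mitochondrial share, the barcodes were divided by each. Across 10 depth bins the levels changed mainly over the bins that lie between the limits. Malat1 had 319 CPM at 3500 to 5000 UMIs, 2925 at 10000 to 15000, 10051 at 15000 to 20000 and 15619 at 20000 to 30000. Fabp1 had 26562, 14274, 6448 and 2548 CPM in the same bins. Within the shallow range, Car3 was 2761 CPM at 1000 to 2000 UMIs and 1346 at 3500 to 5000, whereas Fabp1 was nearly level, at 27334 and 26562. Malat1 was lower in the deeper bins of each class, at 1287 CPM in barcodes of 1000 to 2000 UMIs and 319 at 3500 to 5000, and at 15619 CPM at 20000 to 30000 UMIs and 9610 at 45000 or more.

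**Figure D4:**
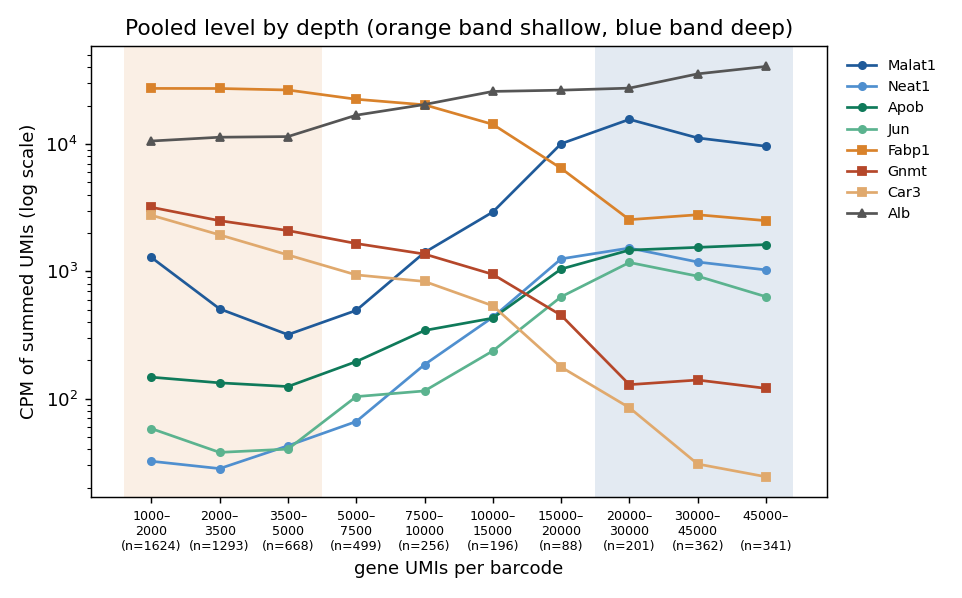
Pooled CPM (y axis, log scale) of 8 genes by gene UMIs per barcode (x axis, 10 bins with the number of barcodes), with the shallow range shaded orange and the deep range blue. Fabp1, Gnmt and Car3 were lower and Malat1, Neat1, Apob and Jun higher in the deep bins than in the shallow ones.

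Between the depth limits the barcodes differed by mitochondrial share. Between the depth limits, 673 barcodes with a share under 1% had 151 CPM of Malat1, 57.3 of Apob and 23926 of Fabp1, and 235 barcodes with a share of 5 to 20% had 8794, 1229 and 4383. Their median depths were 7243 and 10052 UMIs. Of the 647 genes called higher in deep barcodes, 624 (96.4%) were higher in the barcodes with the larger share, against 31.5% of all genes tested, and of the 1280 called lower, 1252 (97.8%) were lower. Most genes tested were lower in the barcodes with the larger share, with a median log2 ratio of −0.72, so the 97.8% has to be read against that. These barcodes were in neither class.

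The ends of the depth range held a few barcodes of the other kind. The 8 deep barcodes with a share under 1% had 24.5 CPM of Malat1, 68.5 of Apob and 16764 of Fabp1, all nearer to the shallow pool. Rule genes of the same 8 were nearer to the deep pool for Ttr (25567 CPM), Apoa1 (19540.4) and Apoa2 (6404), and nearer to the shallow one for Alb (16074). The 192 shallow barcodes with a share of 5 to 20% had 6433, 539 and 14220 CPM, between the pools. Hashtag 3 contributed 62 of them from its 118 shallow barcodes, with a median share of 5.59% against 0.596% and 0.514% in hashtags 1 and 2.

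With both classes held to a share of 5 to 20%, a choice made after the data were seen, part of the difference remained. The shallow sums of hashtags 1, 2 and 3 then held 18, 14 and 62 barcodes with 45942, 38430 and 115833 UMIs. Of 1350 genes tested, 155 were higher and 214 lower, and 367 of these genes had been called in the same direction with all barcodes. Of the 1927 genes called with all barcodes, 917 were tested. Endothelial, macrophage and stellate markers had 313, 363 and 407 CPM in these shallow barcodes pooled, against 60.4, 56.2 and 49.8 in all shallow ones. What fewer UMIs and other cells did to the calls was not tested. Car3 at −6.15, Gnmt at −4.30, Otc at −2.87 and Fabp1 at −4.12 (edgeR adjusted p 0.0112) were still called lower, as were 15 of 17 urea cycle and amino acid genes but 5 of 11 of fatty acid oxidation. Still called higher were Apob at 2.90, Fos at 3.02, Gdf15 at 3.63 and Neat1 at 3.09. Malat1 and Xist did not pass, at 0.15 (edgeR adjusted p 0.868) and 0.99 (0.184), and Meg3 changed sign to −0.50 (0.719). Of 72 oxidative phosphorylation rows 20 were lower, of 27 proteasome genes 1, and of 17 lysosome genes 5 were higher.

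**Figure D5:**
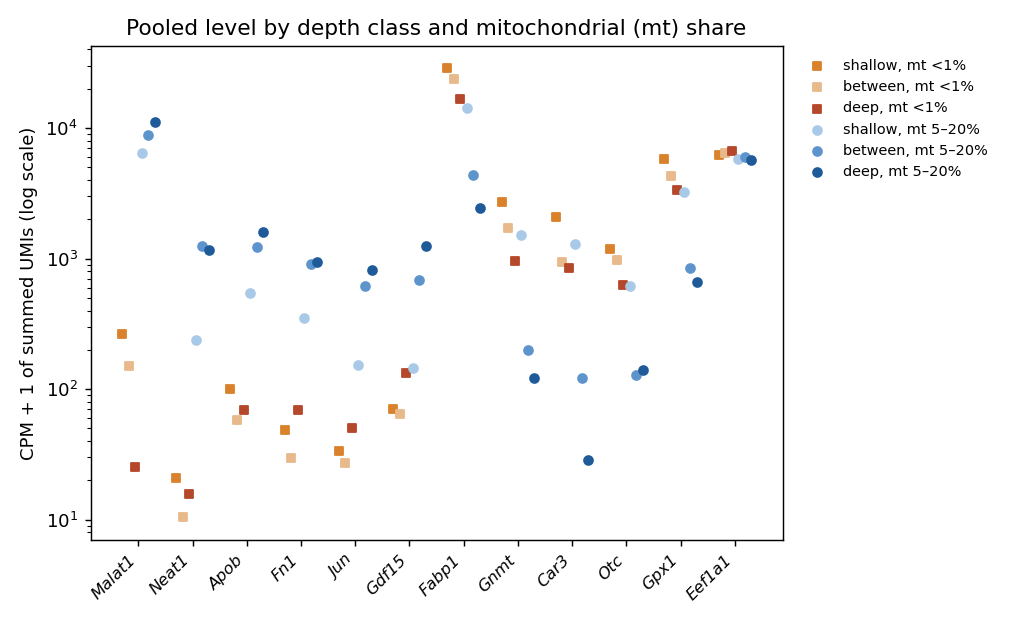
Pooled CPM + 1 (y axis, log scale) of 12 genes in 6 sets of barcodes, by depth class (shade) and mitochondrial share (squares under 1%, circles 5 to 20%). For Malat1 and Neat1 the squares lie below all circles, whereas for Fabp1, Otc and Gpx1 they lie above all circles and for Gnmt and Car3 above the circles of the between and deep sets but not all above the shallow circle, and Eef1a1 lies between 5641 and 6698 CPM in all 6 sets.

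Shares of barcodes with a UMI were compared with each barcode thinned to 1000 UMIs, since depths differed by design. Malat1 was then found in 95.6% of deep and 19.6% of shallow barcodes, against 99.4% and 33.1% without thinning, and in 99.4% of endothelial barcodes, which also express it. Apob was found in 72.0% of deep (exact binomial 95% interval 69.0 to 74.9) and 10.3% of shallow barcodes (9.37 to 11.4). Its share in the endothelial barcodes, which should lack it, was 8.79%, near the shallow one. What free RNA contributed to either share was not tested. Jun was found in 45.9% of deep and 4.30% of shallow barcodes.

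Fabp1 was found in 56.2% of deep, 96.5% of shallow and 49.5% of endothelial barcodes, Gnmt in 12.2%, 79.6% and 23.0%, and Car3 in 62.6% of shallow and 20.8% of endothelial barcodes and in 28 of the 904 deep ones. The thinned deep shares of Gnmt and Car3 were thus below the endothelial ones. Unthinned, Gnmt was in 68.5% of deep and 33.7% of endothelial barcodes, and Car3 in 27.3% and 32.7%. Median depths were 40484 and 3816 UMIs. Whether the deep UMIs of these genes were background was not tested. A median of 511 genes was detected per thinned deep barcode and 577 per shallow one.

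Ratios to Alb were compared with those of the hepatocyte RNA in endothelial barcodes. These barcodes had no upper limit on hepatocyte genes, so free RNA and droplets that also held a hepatocyte cannot be told apart. Fabp1 had 2.43 UMIs per Alb UMI in shallow, 0.605 in endothelial and 0.0704 in deep barcodes, and Gnmt 0.230, 0.0682 and 0.00347. Apob had 0.0121, 0.0334 and 0.0425 UMIs per Alb UMI. For Fabp1 and Gnmt the endothelial ratio lay between the classes, and for Apob it was nearer to the deep one. The part of free RNA in the difference between the classes was not tested.

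Transcript length moved with the difference. Lengths were found for 3170 of 3172 genes as the longest transcript of the annotation. In the shortest of 5 equal groups (371 to 1181 bases), 8.20% of genes were higher in deep barcodes and 54.3% lower, and in the longest (3805 to 26901 bases) 36.9% were higher and 19.9% lower. The median log2 change was −0.67 in the shortest and 0.40 in the longest group, with −0.63, −0.50 and −0.38 between them. Spearman's rho across the 3170 genes, which share libraries and are no independent replicates, was 0.296. The part of length in the lists above was not tested.

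The pattern was found with the construct as well. The 841 deep hepatocytes with mVenus or over the Nras limit had 13658 CPM of Malat1, 1277 of Apob, 1184 of Fabp1 and 16.7 of Car3, and the 1198 shallow ones 742, 156, 23765 and 2117. Each of these lay nearer to the baseline class of its own depth. The limit itself acts differently at the 2 depths. When all 1990 barcodes with at least 20000 UMIs were thinned to 3000 and the rule applied again, 1078 passed, of which 261 (24.2%) carried mVenus or Nras over the limit at their own depth. Of the 841, 30.1% would have passed, so the same limit lets through a part of the construct-bearing barcodes at low depth.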

How the data were processed

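The authors deposited UMI counts per gene and barcode (Cell Ranger, mm10) and hashtag counts per barcode (CITE-seq-Count). The submitters' notes name Cell Ranger 2.1.1 and the matrix header 3.0.2. No per-sample column was left unused (0). Mice were assigned with HTODemux (Seurat 5.3.0, quantile 0.99), and a fixed rule (at least 10 hashtag UMIs, 80% of 1 tag) was an alternative. The members and gene lists were chosen with earlier results of these data known.

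UMIs were summed per class for pooled values and per hashtag and class for the test. edgeR 4.0.16 (quasi-likelihood, library size scaling, hashtag as block, 2 residual degrees of freedom) tested genes that passed filterByExpr, at an adjusted p of 0.05. The block joins sums of the same mouse. Deep sums held 89256 to 22991296 UMIs and shallow sums 246495 to 284830. Named genes were the 12 with the largest pooled log2 ratio (CPM + 1) in each direction among genes called, with the same direction in each hashtag and at least 50 CPM in a class, Gm models and Rik clones aside. Some of these genes and list members are not reported here. Other genes are list members, several of them picked after their values were seen. Intervals cover counting error only. Alternatives were TMM, DESeq2 1.42.0, no block, no filter, leaving out each hashtag, other depth, Nras and mitochondrial limits, and a thinned rule. The test was also run on simulated sums that all had the same spread. They did not model a sum of few barcodes or sums with other cells. Coordinates and lengths are from GRCm38 (GENCODE M21). R 4.3.3, Python 3.11.15, numpy 2.4.6 and scipy 1.17.1 were used.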

Additional observations from a re-analysis of the deposited data

Results flagged for a closer look

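Tags given to no mouse were also counted in the hashtag library. The tag named Hashtag4 had 3229 UMIs, Hashtag5 132 and Hashtag6 10, above the 3 counts allowed by a count of 0. These tags lie outside the measurement used for the comparison, and no barcode was assigned to them.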

How the results depend on the processing

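Against 647 higher and 1280 lower calls, the fit with no replicate block gave 622 and 1379, DESeq2 699 and 511, TMM 810 and 889, and no filter on low counts 1164 and 1720. The fixed hashtag rule gave 576 and 595, a deep limit of 10000 UMIs 621 and 1298, 0 Nras UMIs (hashtags 1 and 2 only, since hashtag 3 had no such deep barcode) 721 and 1488, and mitochondrial UMIs under 10% 627 and 1235. Leaving out 1 hashtag gave 456 to 1277 higher and 655 to 1839 lower calls. After seeing the data, shallow barcodes under 1% mitochondrial UMIs gave 499 and 1113, and both classes at 5 to 20% gave 155 and 214. No gene called in the main fit was called in the opposite direction under any of these. Of the named genes' log2 changes under the alternatives, 294 kept their direction and call, 5 lost the call, and Meg3 turned to −0.50 with both classes at 5 to 20% mitochondrial UMIs. List medians of the pooled ratio turned sign, among barcodes called for 1 hashtag, for hepatocyte transcription factors (−0.046), cytoskeleton (−0.13), cell cycle (−0.25), secretory-phenotype genes (−0.17) and splicing (−0.12). With 0 Nras UMIs they did for cytoskeleton (−0.16) and cell cycle (−0.29), with the rule applied after thinning to 3000 UMIs for cell cycle (−0.023), and at 5 to 20% mitochondrial UMIs for cytoskeleton (−0.62), cell cycle (−0.00339), secretory-phenotype genes (−0.057) and sex-biased genes (0.61). The cause of these changes was not tested. The 10x lanes share 1 barcode suffix and could not be run alone. The deep sum of hashtag 3 (2 barcodes) and the 90.9% of shallow barcodes without a hashtag call limit the test. Assignments to mice that moved with the hashtag rule limit it too.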
